A study of Mus musculus with 18 samples.

Results

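The genes described here are 42 enzymes, transporters and regulators that take hexose sugars through the liver, out of 55487 genes in the count table of livers from 18 male C57BL/6J mice. They were chosen by symbol as members of fructose metabolism, sugar transport, glycolysis, gluconeogenesis, the pentose phosphate pathway and glycogen metabolism. Earlier results of these data were known when the choice was made. All 42 were measured well enough to be tested in both comparisons. RNA sequencing was performed on whole liver, from 6 mice a group and 1 library for each mouse. All mice first received an adeno-associated virus whose TBG promoter drives expression in hepatocytes, and diets started 1 week later and lasted 16 weeks. CON-GFP mice carried a virus for GFP and ate a purified control diet. FPC-GFP mice carried the same virus and ate a diet enriched in fructose, palmitate and cholesterol (FPC) with fructose and glucose in the drinking water. FPC-LIPA mice ate the FPC diet and carried a virus for human LIPA, the gene of lysosomal acid lipase (LAL), which frees cholesterol and fatty acids from lipids inside lysosomes.

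Dietary fructose is phosphorylated in hepatocytes by ketohexokinase (Khk), split by an aldolase, and its glyceraldehyde is phosphorylated by triokinase (Tkfc), so that its carbon joins glycolysis below the step that phosphofructokinase controls. Glycolysis runs from glucose to pyruvate, and the liver also runs the opposite route, gluconeogenesis, in which Pcx with Pck1, Fbp1 and G6pc go around the irreversible steps of glycolysis. The pentose phosphate pathway branches off at glucose 6-phosphate and yields NADPH for lipid synthesis and ribose for nucleotides. Several steps have a liver form and a form found widely in other cells, such as Pklr and Pkm for pyruvate kinase.

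Pklr is the textbook target of the carbohydrate response element, a pair of E-box-like pieces bound by the sugar-sensing factor ChREBP. The promoters of Pklr and Khk are shown because Pklr was the single member with that element and Khk, whose level fell on the FPC diet, held the plain E-box CACGTG. Each line gives the RefSeq window of GRCm38.p6 from 250 bases before to 50 after the start on the plus strand, 5′ to 3′, with motif letters in capitals.
Pklr, chr3:89136373-89136672: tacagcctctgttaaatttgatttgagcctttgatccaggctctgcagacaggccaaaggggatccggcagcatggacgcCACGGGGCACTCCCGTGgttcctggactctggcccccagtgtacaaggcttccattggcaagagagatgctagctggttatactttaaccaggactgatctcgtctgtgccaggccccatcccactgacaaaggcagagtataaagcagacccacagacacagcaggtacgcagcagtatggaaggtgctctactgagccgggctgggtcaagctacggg
Khk, chr5:30921309-30921608: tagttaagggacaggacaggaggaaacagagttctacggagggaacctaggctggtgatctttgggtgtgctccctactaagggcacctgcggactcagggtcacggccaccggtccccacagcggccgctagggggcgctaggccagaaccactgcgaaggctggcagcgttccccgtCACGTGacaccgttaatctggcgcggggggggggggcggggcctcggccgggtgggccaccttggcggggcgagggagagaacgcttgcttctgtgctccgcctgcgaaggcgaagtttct
The capitals in Pklr are 2 pieces, CACGNG and CNCGTG, with 5 bases between them, and they begin 170 bases before the start. In Khk they are 1 E-box that begins 71 bases before the start. RefSeq windows were found for 40 of the 42 members, not for Akr1b3 and Gys2. The carbohydrate response element, searched on both strands, was in 0.0457% of all 32851 windows and in 1 of the 61 member windows. The other window of Pklr did not hold it. CACGTG was in 7.15% of all windows and in 8.20% of the member windows, those of Khk, Ldha, Pcx, Pfkfb3 and Pfkm. Of these genes only Khk was called, and Ldha, Pcx, Pfkfb3 and Pfkm passed in neither comparison. The cAMP response element TGACGTCA was in 1.79% of all windows and in 1 member window, that of Ldha. Such matches describe letters in the windows and were not measured as binding sites.

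Libraries held between 16632146 and 37739301 counts on genes, and the 42 members together took 0.757% to 1.47% of them. Hepatocyte markers were the most abundant marker list in every group, with a summed level of 67315 to 102130 CPM in CON-GFP, 59313 to 84785 in FPC-GFP and 46973 to 73679 in FPC-LIPA, where CPM are counts per M of library scaled by TMM. The summed level of 6 Kupffer cell markers lay at 103 to 216 CPM in CON-GFP, 305 to 513 in FPC-GFP and 414 to 860 in FPC-LIPA. The hepatocyte gene Alb itself lay at 47123 to 70873 CPM in CON-GFP and passed in neither comparison. The summed level of 4 pan-leukocyte markers was 19.7 to 33.0, 33.7 to 62 and 58.7 to 156 CPM. The muscle markers Ckm and Myh4 and the pancreas markers Pnlip, Cpa1 and Prss2 stayed at or under 3 counts in all libraries. The remaining pancreas marker, Cela1, was present, and was called lower on the diet and higher in FPC-LIPA. With it the pancreas list summed to 24.0 to 92.8 CPM in CON-GFP, 11.2 to 15.4 in FPC-GFP and 18.9 to 69.8 in FPC-LIPA. The FPC-LIPA livers 36, 37 and 39 stood apart, with 6.48% to 8.15% of counts on ribosomal protein genes against 2.16% to 2.95% in FPC-LIPA livers 31, 33 and 34, 1.44% to 1.8% in FPC-GFP and 1.75% to 2.54% in CON-GFP. Members and ratios called in the FPC-LIPA comparison are therefore given with and without those 3 livers. The mouse gene Lipa, which is not the human transgene and so does not check the labels, lay at 240 to 406 CPM in FPC-GFP and 254 to 385 CPM in FPC-LIPA. In whole tissue, fewer cells of a type and less RNA per cell cannot be told apart.

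Levels per length show which form of each step the liver used. Per kb of exon, mean levels in CON-GFP were highest for Sord (897 CPM per kb), Pck1 (653), Fbp1 (589) and Khk (462). Those 4 are sorbitol dehydrogenase, the cytosolic enzyme that starts gluconeogenesis from oxaloacetate, fructose bisphosphatase and ketohexokinase. The place of Pck1 among them was not settled, since Sord, Fbp1 and Khk each lay closer to Pck1 than the SD of Pck1 over livers. Among the sugar transporters Slc2a2, the main glucose carrier of hepatocytes, led with 40.6 CPM per kb, above Slc2a9 (6.37), Slc2a1 (3.68), Slc2a8 (3.54) and the intestinal fructose carrier Slc2a5 (1.37). The liver pyruvate kinase Pklr stood at 129 CPM per kb against 2.39 for Pkm, and the cytosolic Pck1 at 653 against 0.332 for the mitochondrial Pck2. Of the phosphofructokinases, Pfkl (4.29) and Pfkm (3.65) lay above Pfkp (0.134). Hk1, Hk2 and Hk3, the hexokinases of other tissues, were between 0.173 and 0.736 CPM per kb. Gapdh, at 12.1 CPM per kb, has many near-identical copies in the genome, and its count is uncertain because the rule for multi-mapping reads is not given in the sources used here. Eno1, Pgam1, Gpi1, Ldha and Pgk1 also have copies in the count table, and the same limit holds for them. Copies took 1.10% of the joint counts of gene and copies for Eno1, 0.924% for Pgam1 and 0.272% for Gapdh.

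The question of the first comparison is how the FPC diet moved these genes in livers that carried GFP. In FPC-GFP against CON-GFP, the 4 pentose phosphate genes among the members rose, 9 of 18 glycolytic genes rose, Khk and Pck1 fell, and no sugar transporter or glycogen gene passed the test. In all, 16 members rose and 3 fell at an adjusted p under 0.05, and 23 did not pass. Of all 14307 genes tested, 12.9% were called higher and 10.9% lower. The median log2 fold change was 0.18 over the members and 0.01 over all genes. With the threshold of at least 2-fold used in the study, 4 members were DE, and 7.20% of all genes were. Counts of members depend on the libraries and the scaling. With each single library left out, 9 to 16 rose, and the count was 9 without FPC-GFP 19. Within the libraries with sample sheet numbers from 55 to 68, the largest run of neighbouring numbers in the labels, 8 rose and 4 fell (Khk, Gckr, Pklr and G6pc). With library size alone as the scaling, 19 rose and 1 fell. That scaling also moved the median of all genes to 0.21.

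**Figure D1:**
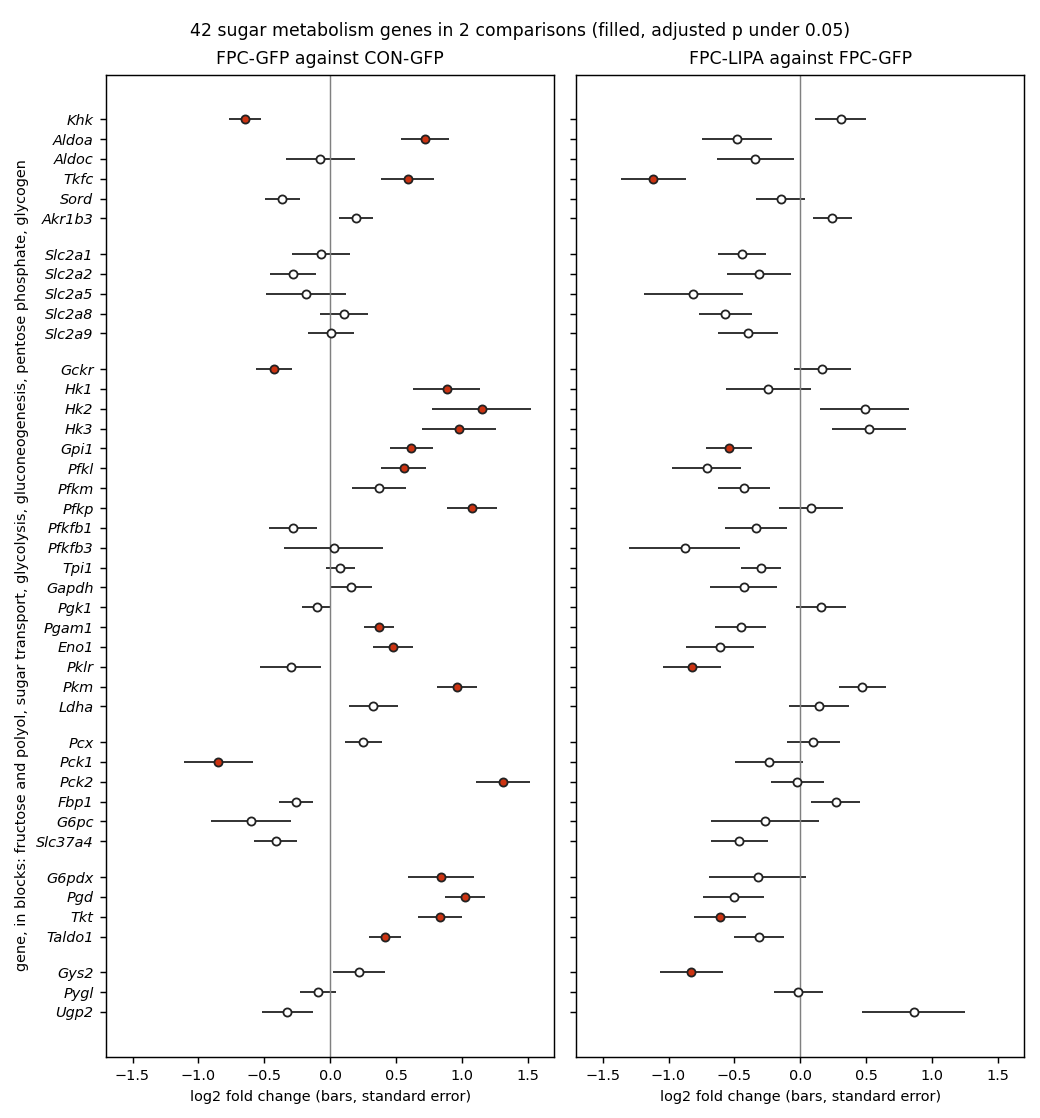
Log2 fold change with its standard error for each of the 42 members, in FPC-GFP against CON-GFP (left) and FPC-LIPA against FPC-GFP (right), 6 livers a group, in blocks by pathway, with filled points for an adjusted p under 0.05. On the left 16 filled points lie above 0 and 3 below, and on the right 5 filled points lie below 0.

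In fructose metabolism the first enzyme fell and a later one rose. Khk (chr5:30921431-30931248, GRCm38) lay at 647 to 1011 CPM in CON-GFP (median 864) and at 494 to 574 in FPC-GFP (median 534), so the groups did not overlap. It was 1.57-fold lower, a log2 change of -0.65 (SE 0.12, adjusted p = 0.00219), and the call held in all 22 alternatives. Tkfc (chr19:10587791-10605654), which phosphorylates the glyceraldehyde released from fructose, moved the other way, from 193 to 525 CPM (median 394) to 440 to 700 (median 570). Its log2 fold change was 0.59 (SE 0.20, adjusted p = 0.0458), the groups overlapped, and the call was lost without any of 9 of the 12 libraries (adjusted p from 0.0516 to 0.0944). Aldoa, the aldolase of muscle and many other cells, rose from 61.3 to 112 CPM (median 95.2) to 114 to 222 (median 132), with a log2 change of 0.72 (SE 0.19, adjusted p = 0.0126). The groups of Aldoa did not overlap, and FPC-GFP 11 was its highest liver. A row of the table with the same symbol held at most 5 counts and was left out.

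The polyol pathway makes fructose from glucose, and neither of its enzymes passed. Sord, which oxidises sorbitol to fructose, had a log2 fold change of -0.36 (adjusted p = 0.0622), and Akr1b3, the aldose reductase that makes sorbitol, 0.20. Aldoc, an aldolase of brain, stood at -0.07. The transporters Slc2a1, Slc2a2, Slc2a5, Slc2a8 and Slc2a9 had log2 fold changes of -0.07, -0.28, -0.18, 0.10 and 0.01, none of which passed the test.

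At the entry into glycolysis the regulator fell and the minor hexokinases rose. Gckr, the regulatory protein that holds back glucose phosphorylation in hepatocytes, lay at 195 to 290 CPM in CON-GFP (median 260) and 147 to 233 in FPC-GFP (median 201). Its log2 fold change was -0.42 (SE 0.14, adjusted p = 0.0353), with overlapping groups, and the call was lost without any of 7 of the 12 libraries (adjusted p from 0.0505 to 0.0774). Hk1 rose from 0.838 to 2.93 CPM (median 1.97) to 3.18 to 4.30 (median 3.35) without overlap, by 0.88 on the log2 scale (SE 0.26, adjusted p = 0.0222). Hk2 rose from 0.163 to 1.77 CPM (median 1.10) to 1.18 to 3.49 (median 2.34), by 1.15 (SE 0.38, adjusted p = 0.0387). Hk3, a hexokinase of white blood cells, rose from 1.18 to 4.06 CPM (median 2.93) to 3.15 to 7.57 (median 5.33), by 0.98 (SE 0.28, adjusted p = 0.0204). All 3 were low genes, with the lowest library at 13, 4 and 25 counts. Hk2 passed in 12 of 22 alternatives and lost its call without any of 8 of the 12 libraries (adjusted p from 0.0515 to 0.0885), while Hk1 and Hk3 each lost it only without FPC-GFP 19 among single libraries (adjusted p = 0.0508 and 0.0528).

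Further down the pathway, the ubiquitous forms of the regulated steps showed the most stable increases. Pfkp (chr13:6579768-6648777), the platelet form of phosphofructokinase, rose from 1.21 to 2.66 CPM (median 1.64) to 3.33 to 4.22 (median 3.82), a log2 change of 1.08 (SE 0.19, adjusted p = 0.00168). Pkm (chr9:59656368-59679375), the pyruvate kinase of muscle, leukocytes and growing cells, rose from 6.58 to 14.2 CPM (median 13.2) to 20.6 to 26.6 (median 23.7), a log2 change of 0.96 (SE 0.15, adjusted p = 0.000871). In neither gene did the groups overlap, and both calls held in all 22 alternatives. Pklr, the pyruvate kinase of hepatocytes, had a log2 fold change of -0.30 and did not pass (adjusted p = 0.348), with FPC-GFP 20 at 561 CPM and the other FPC-GFP livers between 245 and 342. Within sample sheet numbers 55 to 68, which leave out FPC-GFP 20 and CON-GFP 1 and 2, Pklr was called lower (log2 fold change -0.69, adjusted p = 0.0354).

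Pfkl, the liver phosphofructokinase, rose from 15.0 to 36.9 CPM (median 32.1) to 40.2 to 43.9 (median 42.4), by 0.56 on the log2 scale (SE 0.17, adjusted p = 0.0294). Its groups did not overlap, and the call was lost without CON-GFP 6 or FPC-GFP 12 (adjusted p = 0.0646 and 0.0521). Gpi1, which turns glucose 6-phosphate into fructose 6-phosphate, rose from 126 to 244 CPM (median 164) to 231 to 323 (median 269), by 0.62 (SE 0.16, adjusted p = 0.0135). Pgam1, a phosphoglycerate mutase, rose from 50.3 to 76.9 CPM (median 61.7) to 72.0 to 90.6 (median 82.7), by 0.37 (SE 0.11, adjusted p = 0.0299). Eno1, the enolase of most cells, rose from 268 to 514 CPM (median 364) to 478 to 597 (median 536), by 0.47 (SE 0.15, adjusted p = 0.0349). Gpi1 kept its call whichever library was left out, whereas Pgam1 lost it without any of 6 of the 12 libraries and Eno1 without any of 8, with adjusted p up to 0.0669 and 0.0762.

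Of the 18 glycolytic genes, 8 did not pass. They were Pfkm (log2 fold change 0.37), the bifunctional regulators Pfkfb1 (-0.28) and Pfkfb3 (0.03), Tpi1 (0.08), Gapdh (0.16), Pgk1 (-0.10), Pklr and the lactate dehydrogenase Ldha (0.33). The increases in Hk1, Hk2, Hk3, Pfkp and Pkm came with higher Kupffer cell and monocyte and macrophage markers, whose part in the result was not tested. The leukocyte antigen Ptprc itself had a log2 fold change of 0.50 (adjusted p = 0.118). Upward calls were made for 1 of 4 pan-leukocyte markers, 5 of 8 monocyte and macrophage markers and 6 of 6 Kupffer cell markers. No B cell, T and NK cell or neutrophil marker was called, with 3 tested in each list. Of the hepatocyte markers, 3 of 8 fell. Endothelial and stellate markers also rose, 2 of 4 in each list. Of the 4 adipocyte markers only 1 passed the expression filter, and it rose. The summed level of that list lay at 15.7 to 44.6 CPM in CON-GFP and 132 to 404 in FPC-GFP, which does not give a number of adipocytes. The part of these other lists was not tested either.

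Gluconeogenesis showed 1 decrease and 1 increase, in the cytosolic and mitochondrial forms of the same enzyme, which makes phosphoenolpyruvate. Pck1 lay between 920 and 3548 CPM in CON-GFP (median 2414) and between 959 and 1637 in FPC-GFP (median 1176). The CON-GFP livers were widely spread and reached into the FPC-GFP range. The log2 fold change was -0.85 (SE 0.26, adjusted p = 0.0304), and the call was lost without any of 7 of the 12 libraries (adjusted p from 0.0523 to 0.0745). Pck2 (chr14:55540266-55551242) rose from 1.87 to 3.55 CPM (median 2.49) to 4.43 to 9.33 (median 6.41), without overlap. At 2.48-fold it was the largest increase among the members, a log2 change of 1.31 (SE 0.20, adjusted p = 0.000742), and it passed in all 22 alternatives. The other members did not pass, with log2 fold changes of 0.25 for pyruvate carboxylase (Pcx), -0.26 for Fbp1, -0.60 for G6pc (adjusted p = 0.159), the catalytic unit that releases free glucose, and -0.42 for its transporter Slc37a4 (adjusted p = 0.0712). Within sample sheet numbers 55 to 68, G6pc was called lower (log2 fold change -1.03, adjusted p = 0.0394).

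The 4 pentose phosphate members all rose, whereas of 5 further genes of that pathway only Rpia did (log2 fold change 0.82), and Pgls (-0.12), Rpe (-0.34), Rbks (-0.41) and H6pd (0.27) did not pass. G6pdx, whose enzyme commits glucose 6-phosphate to the pathway and makes NADPH, rose from 2.16 to 6.16 CPM (median 3.41) to 3.74 to 8.22 (median 7.13), by 0.84 on the log2 scale (SE 0.25, adjusted p = 0.0242). Its groups overlapped, and the call was lost when FPC-GFP 16 or FPC-GFP 19 was left out (adjusted p = 0.0521 and 0.0508). Pgd (chr4:149149991-149166771), the second NADPH-making step, rose from 22.7 to 39.8 CPM (median 34.2) to 57.4 to 96.1 (median 63.7), a 2.03-fold increase and a log2 change of 1.02 (SE 0.15, adjusted p = 0.000566). Tkt (chr14:30548359-30574720), transketolase of the non-oxidative arm, rose from 87.7 to 193 CPM (median 125) to 203 to 274 (median 232), by 0.83 (SE 0.17, adjusted p = 0.00346). Neither Pgd nor Tkt overlapped between groups, and both passed in all 22 alternatives. Taldo1, transaldolase, rose from 111 to 169 CPM (median 127) to 147 to 196 (median 187), by 0.42 (SE 0.12, adjusted p = 0.022), with FPC-GFP 20 as the single FPC-GFP liver inside the CON-GFP range. Glycogen genes did not pass, with log2 fold changes of 0.22 for the liver glycogen synthase Gys2, -0.09 for the liver phosphorylase Pygl and -0.33 for Ugp2.

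**Figure D2:**
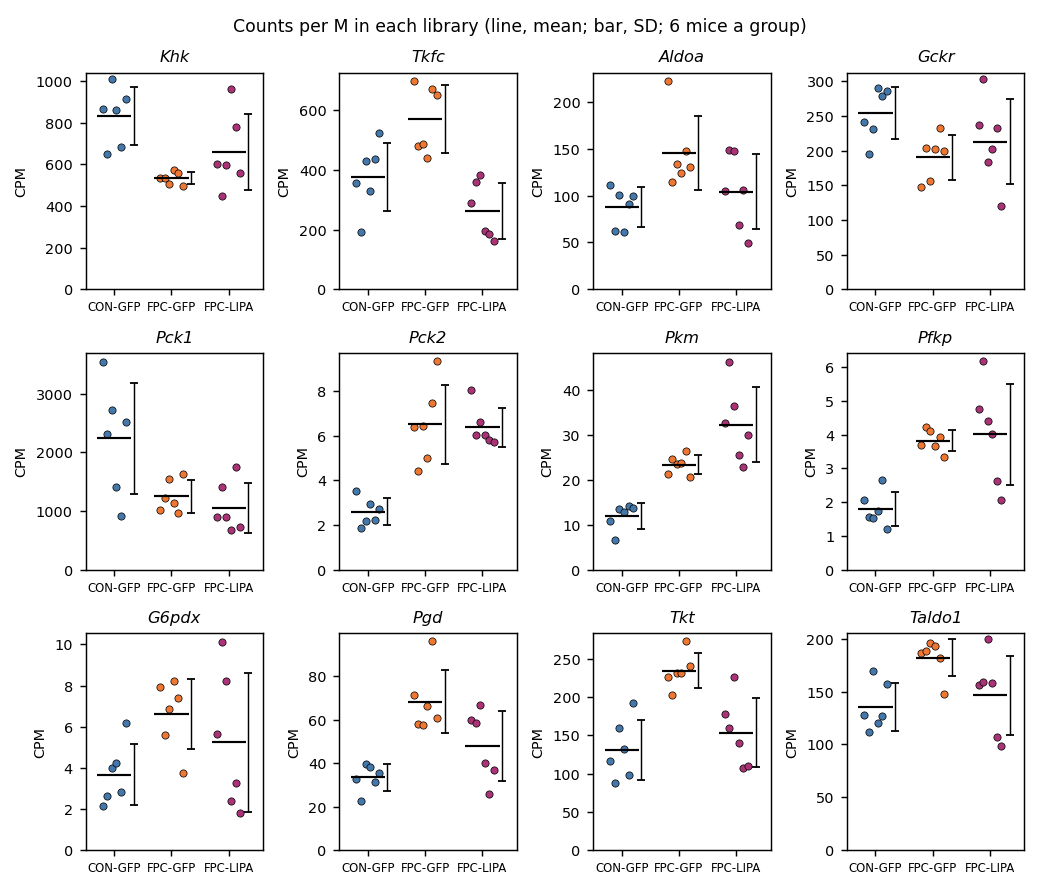
CPM in each library for 12 members, with CON-GFP, FPC-GFP and FPC-LIPA livers as points (6 a group), the group mean as a line and the SD as a bar. Khk sits lower and Aldoa, Pck2, Pkm, Pfkp, Pgd and Tkt sit higher in all FPC-GFP livers than in any CON-GFP liver. FPC-LIPA livers are more widely spread than FPC-GFP livers in Khk, Pkm, Pfkp and Tkt, but less in Pck2 and Tkfc.

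The second comparison asked how human LIPA moved these genes in livers already on the FPC diet. In FPC-LIPA against FPC-GFP, 5 members fell, Tkfc, Pklr, Gys2, Gpi1 and Tkt, and no member rose. Of all 14620 genes tested, 14.4% were called higher and 6.87% lower, and the median log2 fold change was -0.32 over the members and 0.04 over all genes. Only Tkfc reached the 2-fold threshold, as did 11.4% of all genes. At an unadjusted p under 0.05 there were 2 members higher, Pkm and Ugp2, and 13 lower, and DESeq2 called 0 higher and 7 lower. Both comparisons use the FPC-GFP livers, so a high or low FPC-GFP value enters both with opposite sign.

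The number of FPC-LIPA calls changed with the livers in the fit. Without FPC-LIPA 36, 37 and 39, no member was called lower, 1 was called higher (Pkm, log2 fold change 0.73, adjusted p = 0.0333), 7 were lower at an unadjusted p under 0.05, and the median of the members was -0.18. Within the libraries with sample sheet numbers from 55 to 68, which keep 5 livers of each group, no member was called in either direction, with 1 higher and 8 lower at an unadjusted p under 0.05. Log2 fold changes there were -0.97 for Tkfc, -0.58 for Pklr, -0.62 for Gys2, -0.44 for Gpi1 and -0.53 for Tkt, and 100 genes of all were called higher and 4 lower. The count of members called lower was 1 without FPC-GFP 20, 1 without FPC-LIPA 36, 9 without FPC-LIPA 34 and 11 without FPC-LIPA 33, and Ugp2 was called higher without FPC-LIPA 33 (log2 fold change 1.05, adjusted p = 0.0231). Across all genes the same removal of the 3 livers left 169 genes called higher and 17 lower. The ribosomal protein share moved with these levels across the FPC-LIPA livers, and its part in the results was not tested.

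Tkfc showed the largest decrease among the members and the most stable one. It lay at 440 to 700 CPM in FPC-GFP (median 570) and 163 to 384 in FPC-LIPA (median 243), with no overlap. The level was 2.17-fold lower, a log2 change of -1.12 (SE 0.24, adjusted p = 0.0144), and the call held whichever single library was left out. The 3 livers with a high ribosomal protein share were the lowest, at 197, 163 and 185 CPM, and FPC-LIPA 31, 33 and 34 were at 290, 361 and 384 CPM, still below every FPC-GFP liver. Without the high 3, the log2 fold change was -0.72 (SE 0.19, adjusted p = 0.0835).

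Pklr (chr3:89136142-89146784), whose promoter carries the carbohydrate response element shown above, lay at 245 to 561 CPM in FPC-GFP (median 306) and 157 to 244 in FPC-LIPA (median 181). The groups touched without overlapping, and the log2 fold change was -0.82 (SE 0.22, adjusted p = 0.023). Its call was lost without FPC-GFP 20, FPC-LIPA 36 or FPC-LIPA 39 (adjusted p from 0.0505 to 0.0515), and without the 3 high livers the log2 fold change was -0.65 (adjusted p = 0.191). Gys2 (chr6:142422613-142473109), which builds glycogen in the liver, lay at 122 to 269 CPM in FPC-GFP (median 192) and 60.1 to 131 in FPC-LIPA (median 123), a log2 change of -0.83 (SE 0.24, adjusted p = 0.0292). FPC-GFP 11 lay inside the FPC-LIPA range. The Gys2 call was lost without any of 5 of the 12 libraries (adjusted p from 0.0535 to 0.0652), and without the 3 high livers the log2 fold change was -0.64 (adjusted p = 0.175).

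Gpi1 (chr7:34201330-34230336) and Tkt were close to the threshold. Gpi1 lay at 231 to 323 CPM in FPC-GFP (median 269) and 149 to 237 in FPC-LIPA (median 182), a log2 change of -0.54 (SE 0.17, adjusted p = 0.04). Tkt lay at 203 to 274 CPM (median 232) and 108 to 227 (median 150), a log2 change of -0.61 (SE 0.20, adjusted p = 0.0426). In both genes FPC-LIPA 34 was the liver that reached into the FPC-GFP range. The calls were lost without any of 10 and any of 9 of the 12 libraries, with adjusted p up to 0.0865 and 0.0878, and without the 3 high livers the log2 fold changes were -0.34 (adjusted p = 0.259) and -0.31 (adjusted p = 0.292).

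**Figure D3:**
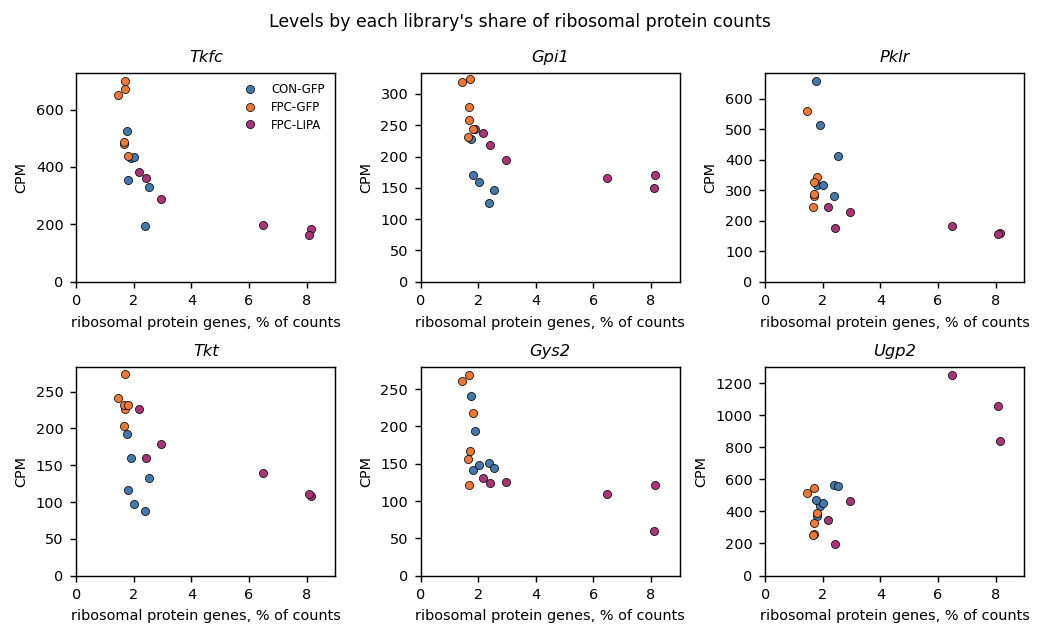
CPM of the 5 members lower in FPC-LIPA, and of Ugp2, against the percent of each library's counts on ribosomal protein genes, 1 point per liver in 3 groups. The 3 FPC-LIPA livers above 6% on the x axis have the lowest Tkfc levels of that group and the highest Ugp2 levels of all livers.

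Ugp2, which makes UDP-glucose for glycogen, lay at 253 to 545 CPM in FPC-GFP (median 360) and 194 to 1248 in FPC-LIPA (median 652). Its log2 fold change was 0.86 (adjusted p = 0.114) with all livers and -0.18 (adjusted p = 0.783) without the 3 with a high ribosomal protein share. Pygl, the third glycogen gene, stood at -0.02. Among the pentose phosphate genes that did not pass, log2 fold changes were -0.32 for G6pdx, -0.51 for Pgd and -0.31 for Taldo1. The 3 fructose and polyol genes Khk, Sord and Akr1b3 stood at 0.31 (adjusted p = 0.245), -0.15 and 0.24, and the aldolases Aldoa and Aldoc at -0.48 and -0.34.

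All 5 transporters had log2 fold changes below 0 and none passed, with Slc2a8 at -0.57 (adjusted p = 0.0537), Slc2a1 at -0.44 (adjusted p = 0.0877), Slc2a5 at -0.81 (adjusted p = 0.121), Slc2a2 at -0.31 and Slc2a9 at -0.39. In glycolysis, Pfkl stood at -0.71 (adjusted p = 0.0633), Eno1 at -0.61 (adjusted p = 0.0917), Pfkfb3 at -0.88 (adjusted p = 0.13), Pgam1 at -0.45, Gapdh at -0.43, Pfkm at -0.42, Pfkfb1 at -0.34 and Tpi1 at -0.30. Ldha, Pgk1, Gckr and Pfkp lay between 0.08 and 0.17, and Hk1 was at -0.24. Pkm stood at 0.47 (adjusted p = 0.0684) and passed after removal of each library's GC or length trend (adjusted p = 0.00923 and 0.0313), Hk2 at 0.49 and Hk3 at 0.52. Leukocyte signal was also higher in FPC-LIPA, where Ptprc had a log2 change of 1.67 (SE 0.38, adjusted p = 0.0159) and 3 of 4 pan-leukocyte markers rose. Higher calls were also made for 4 of 8 monocyte and macrophage markers and 3 of 6 Kupffer cell markers. The same held for 2 of 4 B cell markers, 2 of 3 neutrophil markers tested and 1 of 4 T and NK cell markers tested. Of the other lists, 2 of 5 red blood cell markers rose (summed level 283 to 475 CPM in FPC-GFP and 520 to 2676 in FPC-LIPA). Stellate cell markers rose in 2 of 4 cases (158 to 208 and 216 to 630 CPM). Calls were lower for 1 of 8 hepatocyte markers and for the 1 adipocyte marker tested. The part of any of these cells in the values of Pkm, Hk2 and Hk3 was not tested. Without FPC-LIPA 36, 37 and 39, log2 fold changes nearer to 0 included -0.23 for Pfkl, -0.18 for Eno1, -0.02 for Gapdh, -0.32 for Slc2a8, -0.23 for Slc2a1 and -0.14 for Pgd, while Slc2a5 was at -1.32 and Hk3 at 0.93, none of them called. Gluconeogenic genes did not pass with all livers, at 0.10 for Pcx, -0.24 for Pck1, -0.02 for Pck2, 0.27 for Fbp1, -0.27 for G6pc and -0.46 for Slc37a4.

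Ratios of 2 genes inside a library need no scaling between libraries. For 8 pairs the log2 ratio of counts per kb of exon was compared by an exact two-sided permutation test over livers. P-values were adjusted over the 16 tests, and the smallest p the test can give is 0.00216. The pairs were chosen with earlier results of these data known. Their p-values are therefore not separate support for the calls of the same members. In FPC-GFP against CON-GFP the ratio of the ubiquitous to the liver pyruvate kinase, Pkm to Pklr, was 2.45-fold higher. Its mean log2 value was -5.73 ± 0.40 (SD, n = 6) in CON-GFP and -4.44 ± 0.50 in FPC-GFP (exact permutation p = 0.00433, adjusted p = 0.0115). FPC-GFP 20, at -5.39, was the single FPC-GFP liver inside the CON-GFP range. Khk to Tkfc, the first against the later kinase of fructose metabolism, was 2.40-fold lower, at 2.54 ± 0.40 (SD, n = 6) in CON-GFP and 1.28 ± 0.32 in FPC-GFP (exact permutation p = 0.00216, adjusted p = 0.00866), with no overlap. Fbp1 to Pfkl, which catalyse opposite directions of 1 step, was 1.83-fold lower, at 7.15 ± 0.39 (SD, n = 6) in CON-GFP and 6.28 ± 0.16 in FPC-GFP (exact permutation p = 0.00216, adjusted p = 0.00866), also without overlap.

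In FPC-LIPA against FPC-GFP, Pkm to Pklr was 2.34-fold higher, at -3.21 ± 0.36 (SD, n = 6) in FPC-LIPA (exact permutation p = 0.00216, adjusted p = 0.00866), and all 6 livers lay above every FPC-GFP liver. Pfkp to Pfkl was 1.79-fold higher, at -4.47 ± 0.14 (SD, n = 6) in FPC-GFP and -3.63 ± 0.37 in FPC-LIPA (exact permutation p = 0.00216, adjusted p = 0.00866), again without overlap. Both ratios kept an adjusted p under 0.05 without FPC-LIPA 36, 37 and 39. Khk to Tkfc was 2.70-fold higher, at 2.72 ± 0.80 (SD, n = 6) in FPC-LIPA (exact permutation p = 0.00433, adjusted p = 0.0115), but its log2 difference fell from 1.43 to 0.75 without those livers (adjusted p = 0.0952). Fbp1 to Pfkl was 2.14-fold higher (exact permutation p = 0.0195, adjusted p = 0.0445), with a log2 difference of 1.10 that was 0.30 without them (adjusted p = 0.354). That call was also lost without any of 9 single libraries (adjusted p from 0.0643 to 0.104). The ratios Slc2a1 to Slc2a2, Pck1 to Pklr and G6pc to Slc37a4 did not pass in either comparison. Pfkp to Pfkl did not pass on the diet (log2 difference 0.49, adjusted p = 0.123), although it did without CON-GFP 2 (0.64, adjusted p = 0.0148). Gys2 to Pygl did not pass on the diet, and in FPC-LIPA its log2 difference of -0.78 (adjusted p = 0.0563) passed only when FPC-GFP 11 or FPC-LIPA 33 was left out (adjusted p = 0.0445 and 0.039).

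**Figure D4:**
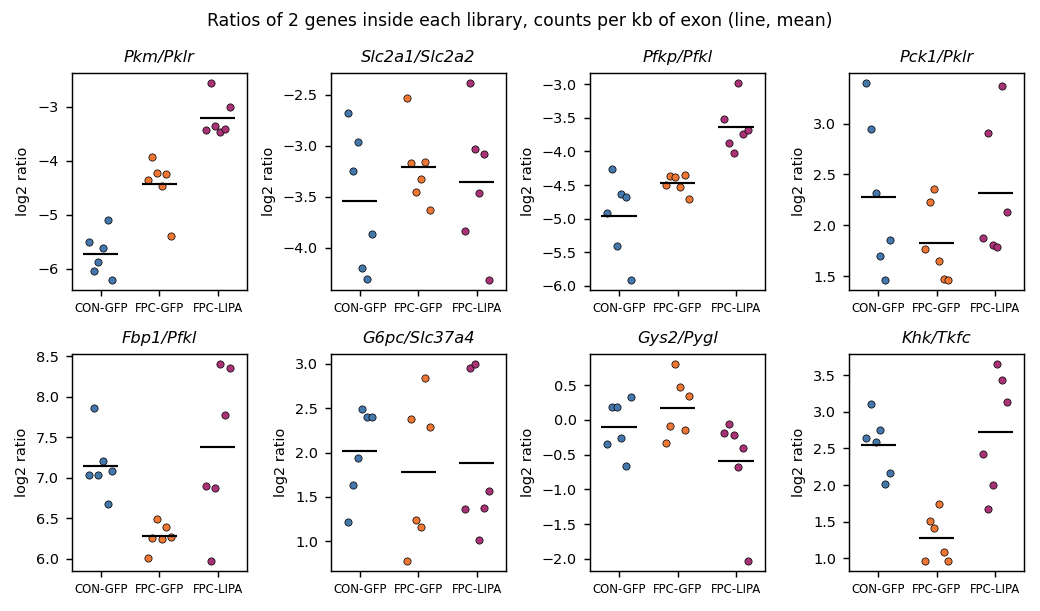
Log2 ratio of 2 genes in each library, from counts per kb of exon, for 8 pairs in CON-GFP, FPC-GFP and FPC-LIPA (6 livers a group, line at the mean). Mean Pkm to Pklr is -5.73, -4.44 and -3.21 in the 3 groups, and all FPC-GFP livers lie below the CON-GFP livers in Khk to Tkfc and in Fbp1 to Pfkl.

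Other genes of the same pathways were listed beside the members, 59 in all, of which 56 could be tested. On the diet 7 rose and 6 fell, shares close to the 12.9% and 10.9% of all genes. The largest increases were Fbp2, the muscle form of fructose bisphosphatase, with a log2 change of 1.61 (SE 0.35, adjusted p = 0.00489) at levels from 0.0746 to 0.904 CPM, and Srebf1, a regulator of fatty acid synthesis, from 95.0 to 224 CPM (median 169) to 365 to 581 (median 433), at 1.49 (SE 0.18, adjusted p = 0.000198). The largest decreases were Got1, a cytosolic transaminase, from 88.0 to 556 CPM (median 181) to 34.2 to 71.6 (median 52.4), at -2.12 (SE 0.36, adjusted p = 0.00122), and Ppp1r3b, which targets a phosphatase to glycogen, from 314 to 520 CPM (median 434) to 104 to 199 (median 142), at -1.53 (SE 0.17, adjusted p = 0.000109). None of those 4 overlapped between groups, but they were picked as the largest called changes, so that is not separate support. The others that rose were Pgm2, Pdhb, Gpd1, Rpia and Pygb, and the others that fell were Pfkfb2, Mpc2, Gpt and Ppargc1a.

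In FPC-LIPA against FPC-GFP 3 of these genes rose and 8 fell, where 14.4% and 6.87% of all genes did. The mitochondrial pyruvate carrier subunits Mpc1 and Mpc2 had log2 fold changes of 1.78 (SE 0.40, adjusted p = 0.0152) and 1.49 (SE 0.36, adjusted p = 0.0188), and Gk also rose. H6pd, a hexose 6-phosphate dehydrogenase of the endoplasmic reticulum, stood at -1.21 (SE 0.32, adjusted p = 0.0219) and the liver transcription factor Hnf4a at -0.98 (SE 0.32, adjusted p = 0.0425), with Pgm1, Got2, Mdh1, Mdh2, Gpd1 and Foxo1 also lower. Mpc1 spread from 168 to 961 CPM over the FPC-LIPA livers. Without FPC-LIPA 36, 37 and 39, 0 of the 56 passed in edgeR, with 14 at an unadjusted p under 0.05. Log2 fold changes were then 0.48 for Mpc1, 0.33 for Mpc2, -0.70 for H6pd and -0.46 for Hnf4a.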

How the data were processed

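RNA was sequenced from 18 livers, 6 each from CON-GFP, FPC-GFP and FPC-LIPA mice, and every mouse gave 1 library. The deposited values are raw counts per gene, which the authors made by trimming with Trimmomatic, mapping with HISAT2 2.1.0 to GRCm38 and counting with featureCounts of Subread, without normalization. The strand setting, annotation version and rule for multi-mapping reads are not given in the sources used here, and both a stranded and an unstranded kit are named without saying which library used which. Of 23 columns, 18 were matched to the groups by condition and mouse number, and 5 were not used here. The labels of FPC-LIPA 37 differ, with 37b in its title and 37 in its description. That library has sample sheet number 228 and the fewest counts of all, 16632146.

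Each comparison was fitted on its 12 libraries. Genes were kept with filterByExpr, scaled by TMM and tested with the quasi-likelihood test of edgeR 4.0.16 in R 4.3.3, with Benjamini-Hochberg adjustment over all genes tested. A member was called at an adjusted p under 0.05, and DE if it also changed at least 2-fold. The SE of a log2 fold change is its size over the square root of F, and p-values cover the spread between mice. CPM values were scaled over all libraries, and levels of different genes were compared only per kb of exon in GENCODE M21, on GRCm38. Ratios added 0.5 to each count. Total counts were 16632146 to 37739301 per library, and 3 counts or fewer was taken as the floor. Steps were tested on simulated data. Promoter windows came from RefSeq, GRCm38.p6.

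The members, gene lists, ratios and alternatives were chosen with earlier results of these data known. Every member was named, those called in a comparison with the lowest, median and highest CPM of each group, and of the other pathway genes the 2 largest increases and 2 largest decreases among those called. The scaling was also done by library size alone, by upper-quartile factors and by the size factors of DESeq2 1.42.0, whose Wald test was run as well. Other fits used no filter, a filter of 1 CPM in 6 libraries, or the 18 libraries together. Length and GC trends of each library were removed. Libraries were left out singly, restricted to sample sheet numbers 55 to 68, or fitted without FPC-LIPA 36, 37 and 39. The ratios were also taken with 2 in place of 0.5. Tables were made in Python 3.11.15 with pandas 2.3.3, and matplotlib 3.10.9 drew the figures.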

Additional observations from a re-analysis of the deposited data

Results flagged for a closer look

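In 5 of the 126 combinations of a member and a group, 1 liver lay far from the other 5 by Dixon's ratio, where chance gives about 1 in 20. Hk2 was at 0.163 CPM in CON-GFP 1 against 0.903 to 1.77 in the other CON-GFP livers. Pkm was at 6.58 CPM in CON-GFP 2 against 10.8 to 14.2. FPC-GFP 20 was far from its group in 2 genes, with Pfkfb3 at 35.6 CPM against 6.71 to 10.3 and Taldo1 at 147 CPM against 182 to 196. Gys2 was at 60.1 CPM in FPC-LIPA 37 against 109 to 131 in the other FPC-LIPA livers, and without FPC-LIPA 37 its decrease against FPC-GFP was still called.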

How the results depend on the processing

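None of the calls changed direction in any alternative. In FPC-GFP against CON-GFP, the 16 members called higher were 7 with all 18 libraries in 1 fit and 8 within sample sheet numbers 55 to 68 (9 to 16 with each library left out). The 3 called lower were 5 with the DESeq2 Wald test, 1 with all 18 libraries and 1 with library size alone (1 to 3). The 4 that also changed at least 2-fold were 2 after removal of the length trend and 9 with library size alone (2 to 5). The 13 other pathway genes were 7 with all 18 libraries and 8 within sample sheet numbers 55 to 68 (9 to 14). Library size alone moved the median of the members from 0.18 to 0.38 and that of all genes to 0.21. The 3 ratios that passed were 4 within sample sheet numbers 55 to 68 (3 to 4 with each library left out).

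In FPC-LIPA against FPC-GFP, the 0 members called higher were 2 after removal of the GC trend, 1 after removal of the length trend and 1 without FPC-LIPA 36, 37 and 39 (0 to 1 with each library left out). The 5 called lower were 3 with library size alone, upper-quartile factors, no filter or removal of either trend, and 0 within sample sheet numbers 55 to 68 or without the 3 livers (1 to 11). The 1 that also fell at least 2-fold was 0 after removal of the GC trend, within those sample sheet numbers and without the 3 livers (1 to 2). The 11 other pathway genes were 5 with library size alone and 0 within the sample sheet numbers or without the 3 livers (2 to 18). The 4 ratios that passed were 2 without the 3 livers (3 to 5). The cause of these changes was not tested, apart from the smaller number of livers where some were left out.

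No paired analysis was possible because mouse numbers are not shared between the groups. Low genes such as Hk2, with 4 counts in its lowest library, are limited by depth.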
